A study of Mus musculus with 14 samples.

Results

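The 44 collagen genes of the mouse were followed in 14 mammary tumors. They are the rows of the deposited table of normalized values whose symbol is that of a collagen chain, among 56414 genes listed. All 44 were found, each with 1 row. The row of Col25a1 is joined with 4930502M04Rik and that of Col7a1 with Mir711, so the reads of these genes cannot be told apart from those of their neighbors. The members were sorted by the kind of assembly that their chains form: 11 fibrillar, 6 basement membrane, 6 beaded filament, 9 FACIT (fibril-associated collagens with interrupted triple helices), 3 short-chain network, 4 transmembrane, 2 multiplexin and 1 anchoring fibril collagen genes, plus 2 that were left without a class.

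Collagens are triple helices of chains that are hydroxylated and folded in the endoplasmic reticulum, secreted, trimmed and crosslinked in the extracellular matrix. Fibrillar collagens such as type I, made of Col1a1 and Col1a2 chains, and type III, made of Col3a1, give the stroma of tumors its tensile fibers and come largely from fibroblasts. Type IV collagen forms the sheet-like network of basement membranes below epithelia and around vessels, fat cells and muscle fibers. Type II collagen, together with types IX, X and XI, is best known from cartilage, and Col17a1 is a transmembrane collagen of hemidesmosomes, which anchor basal keratinocytes.

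RNA was extracted from whole tumors of female C57Bl/6 mice, with 1 library per tumor. M/D tumors arose in the mammary gland of mice that received a slow-release pellet of medroxyprogesterone acetate (MPA, a progestin) and 7,12-dimethylbenz[a]anthracene (DMBA, a carcinogen) by gavage, and 4 were left untreated whereas 4 were exposed to nicotinamide (NAM, a form of vitamin B3). AT3 tumors grew from cells of a mouse mammary carcinoma line injected under the skin, with 3 untreated and 3 NAM-treated tumors. NAM was given at 0.5% in the drinking water for 10 days, both to M/D and to AT3 hosts. AT3 tumors stand for a single cell line, and model, site of growth and experiment number cannot be told apart, since M/D tumors are from experiments 1 and 2 and AT3 tumors from experiment 3. Reads were from poly(A) RNA, and in such bulk libraries fewer cells of a type and less RNA per cell cannot be told apart.

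Several libraries stood apart. NAM-treated M/D tumor 1, which is the only tumor of experiment 2, had the lowest summed level of keratinocyte markers (1132, against 86577 to 591470 in the other NAM-treated M/D tumors) and was the lowest of the 8 M/D tumors for 17 of 43 members, beside 27.3% of all genes. Untreated M/D tumor 2 was the lowest of the 4 untreated M/D tumors for 21 of 43 members (34.5% of all genes), including Col1a1, Col1a2, Col3a1, Col5a1, Col5a2 and Col5a3. Untreated AT3 tumor 2 was the highest of the 3 untreated AT3 tumors for 33 of 39 members, beside 42.7% of all genes. Summed levels of skeletal muscle markers ran from 123 to 213856 across tumors. Reads assigned to genes numbered 40936868 to 84178009 per tumor, so that counting error is small beside the spread between tumors.

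To show where these type IV genes start, the 4 promoter windows of Col4a1, Col4a2, Col4a5 and Col4a6 are printed here. Each runs from 250 bases before to 50 bases after the transcription start (RefSeq, GRCm38.p6), from 5′ to 3′ on the strand of the gene. Their part in the levels of these genes was not tested. Capitals mark matches on either strand to the CCAAT box, to the GC box GGGCGG and to the TATA box TATAAA, which do not overlap with each other in these windows.
Col4a1: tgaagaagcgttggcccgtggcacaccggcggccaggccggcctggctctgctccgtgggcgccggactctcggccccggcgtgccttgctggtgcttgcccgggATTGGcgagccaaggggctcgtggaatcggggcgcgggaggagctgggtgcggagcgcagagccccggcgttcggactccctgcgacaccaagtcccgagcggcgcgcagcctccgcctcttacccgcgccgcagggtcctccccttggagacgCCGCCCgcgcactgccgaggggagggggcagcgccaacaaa
Col4a2: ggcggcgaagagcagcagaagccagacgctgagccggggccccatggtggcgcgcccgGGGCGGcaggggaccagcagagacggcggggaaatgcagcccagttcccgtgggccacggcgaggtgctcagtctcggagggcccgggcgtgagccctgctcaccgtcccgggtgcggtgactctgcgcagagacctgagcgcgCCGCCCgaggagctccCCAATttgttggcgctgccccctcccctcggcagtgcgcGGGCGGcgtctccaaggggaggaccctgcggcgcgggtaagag
Col4a5: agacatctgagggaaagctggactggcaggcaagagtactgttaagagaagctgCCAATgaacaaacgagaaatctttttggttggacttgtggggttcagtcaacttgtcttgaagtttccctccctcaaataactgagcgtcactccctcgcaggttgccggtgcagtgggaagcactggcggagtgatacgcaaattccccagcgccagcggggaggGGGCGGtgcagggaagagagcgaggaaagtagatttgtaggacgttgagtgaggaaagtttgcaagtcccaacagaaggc
Col4a6: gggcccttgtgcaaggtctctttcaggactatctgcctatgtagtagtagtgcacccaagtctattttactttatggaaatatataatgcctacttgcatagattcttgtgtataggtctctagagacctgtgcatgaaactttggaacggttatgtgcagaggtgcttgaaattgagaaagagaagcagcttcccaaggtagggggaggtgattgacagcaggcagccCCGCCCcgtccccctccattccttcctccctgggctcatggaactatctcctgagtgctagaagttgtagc

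The windows of Col4a1 (chr8:11312777-11313076, minus strand) and Col4a2 (chr8:11312555-11312854, plus strand) overlap, with starts 21 bases apart and transcription running in opposite directions. Those of Col4a6 (chrX:141474027-141474326, minus strand) and Col4a5 (chrX:141475169-141475468, plus strand) also run in opposite directions, but from starts 1343 bases apart. GC content was 74.0% for Col4a1 and 73.7% for Col4a2, against 52.7% for Col4a5 and 48.3% for Col4a6, and the median over 32851 windows was 52.7%. CCAAT was found in 37.4%, GGGCGG in 35.7% and TATAAA in 13.6% of all windows. Hence, GGGCGG was present in all 4 windows (3 times in that of Col4a2), CCAAT in all but that of Col4a6, and TATAAA in none. The GGGCGG match of Col4a1 and the last one of Col4a2 are the same site, which lies where their windows overlap.

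Collagen genes took up a larger share of the reads in most M/D tumors than in most AT3 tumors. The share was 1.07%, 0.596%, 1.08% and 1.22% in untreated M/D tumors 1 to 4, and 0.522%, 1.09%, 1.59% and 1.15% in NAM-treated M/D tumors 1 to 4. In AT3 tumors 1 to 3 it was 0.197%, 0.721% and 0.215% without NAM, and 0.362%, 0.685% and 1.02% with NAM. The groups overlapped, since NAM-treated AT3 tumors 2 and 3 and untreated AT3 tumor 2 were above the lowest M/D tumors. Counting error is small beside these differences, as the 95% Wilson interval of the highest share, in NAM-treated M/D tumor 3, was 1.591% to 1.598%, and such intervals cover counting error only.

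**Figure D1:**
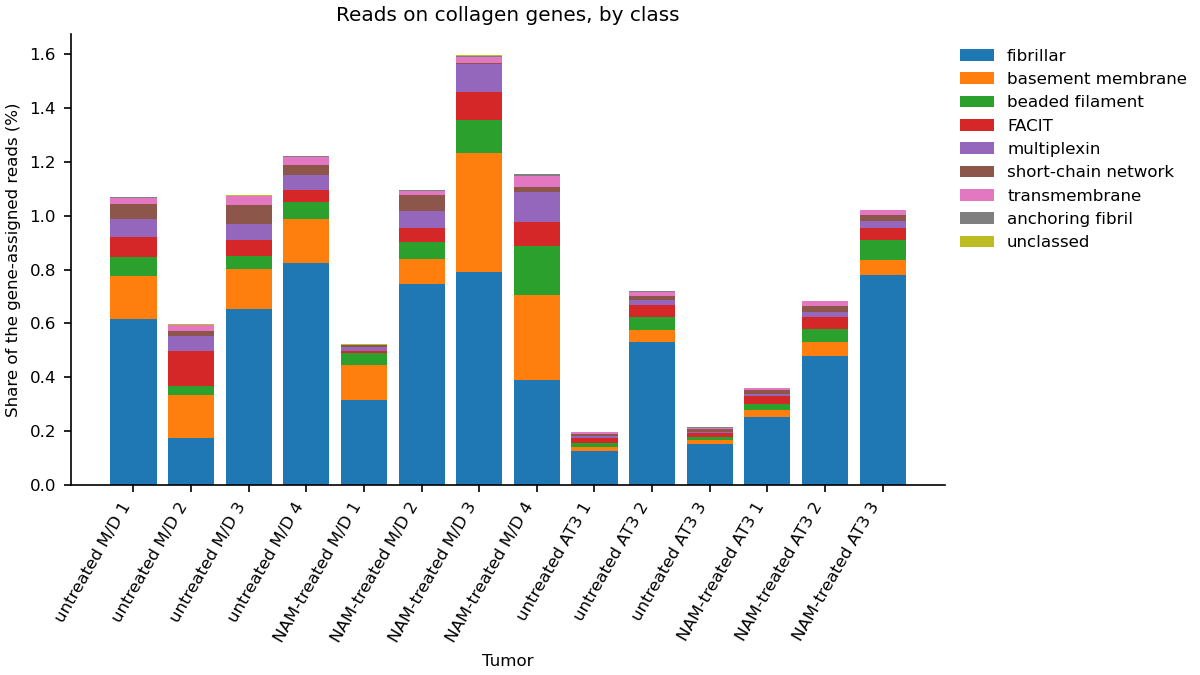
Stacked bars give the share (%) of the gene-assigned reads that fell on collagen genes in each of the 14 tumors, split by class. Fibrillar collagens fill most of each AT3 bar, basement membrane collagens take a larger part of every M/D bar than of any AT3 bar, and the lowest M/D bars are untreated tumor 2 (0.596%) and NAM-treated tumor 1 (0.522%).

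The makeup of this share differed by class. Fibrillar chains held 53.8% ± 16.9 (SD, n = 4) of the collagen reads in untreated M/D tumors, 53.0% ± 14.9 (SD, n = 4) in NAM-treated M/D tumors, 69.7% ± 4.80 (SD, n = 3) in untreated AT3 tumors and 71.9% ± 3.75 (SD, n = 3) in NAM-treated AT3 tumors. Basement membrane chains held 13.1% to 26.8% in untreated M/D and 8.46% to 27.7% in NAM-treated M/D tumors, but 6.28% to 8.14% in untreated AT3 and 5.49% to 7.70% in NAM-treated AT3 tumors. Thus, the basement membrane share of collagen reads did not overlap between M/D and AT3 tumors, whereas the fibrillar share did.

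Levels were set side by side per kilobase of the longest transcript, on a scale set over all 14 tumors (the common scale). Reads were counted on constitutive regions of genes, whose lengths are not given in the sources used here, so the longest transcript stands in for them and the order of genes per kb is approximate. Col1a1 was the highest collagen gene in untreated M/D tumors, at 16856 ± 9398 per kb (SD, n = 4), followed by Col3a1 at 15777 ± 8876 and Col1a2 at 15272 ± 8554, differences far smaller than the spread between tumors. In NAM-treated M/D tumors Col3a1 came first (15977 ± 8590 per kb, SD, n = 4). Col1a1 led again in untreated AT3 tumors, at 11806 ± 9666 per kb (SD, n = 3), and in NAM-treated AT3 tumors, at 17501 ± 8762 per kb (SD, n = 3). The fourth place went to Col4a2 in both M/D groups (9590 ± 1528 and 11729 ± 7172 per kb), whereas in AT3 tumors Col4a2 was sixth, at 1673 ± 1065 per kb without and 2610 ± 861 per kb with NAM.

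Below these, the leading member of each class was mostly shared by the models. Among beaded filament chains it was Col6a1, which encodes a chain of the microfibrils that surround many cells, and among multiplexins Col18a1, the source of the fragment endostatin. Col8a1 led the short-chain network collagens, which form hexagonal lattices, and Col28a1 the members without a class. The leading transmembrane member was Col17a1 in M/D tumors, at 2567 ± 560 per kb (SD, n = 4) without and 1475 ± 1269 per kb (SD, n = 4) with NAM, but Col25a1 in AT3 tumors, at 518 ± 203 per kb (SD, n = 3) without and 944 ± 402 per kb (SD, n = 3) with NAM. The leading FACIT member was Col16a1 in both M/D groups, Col9a1 in untreated AT3 tumors and Col9a2 in NAM-treated AT3 tumors. Col7a1, the anchoring fibril chain below stratified epithelia, ranked 27th to 29th of 44 in every group. Col19a1 was at 0 in every untreated M/D tumor and every AT3 tumor and at most 11.9 as deposited, so it did not pass the filter on low values in any comparison.

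**Figure D2:**
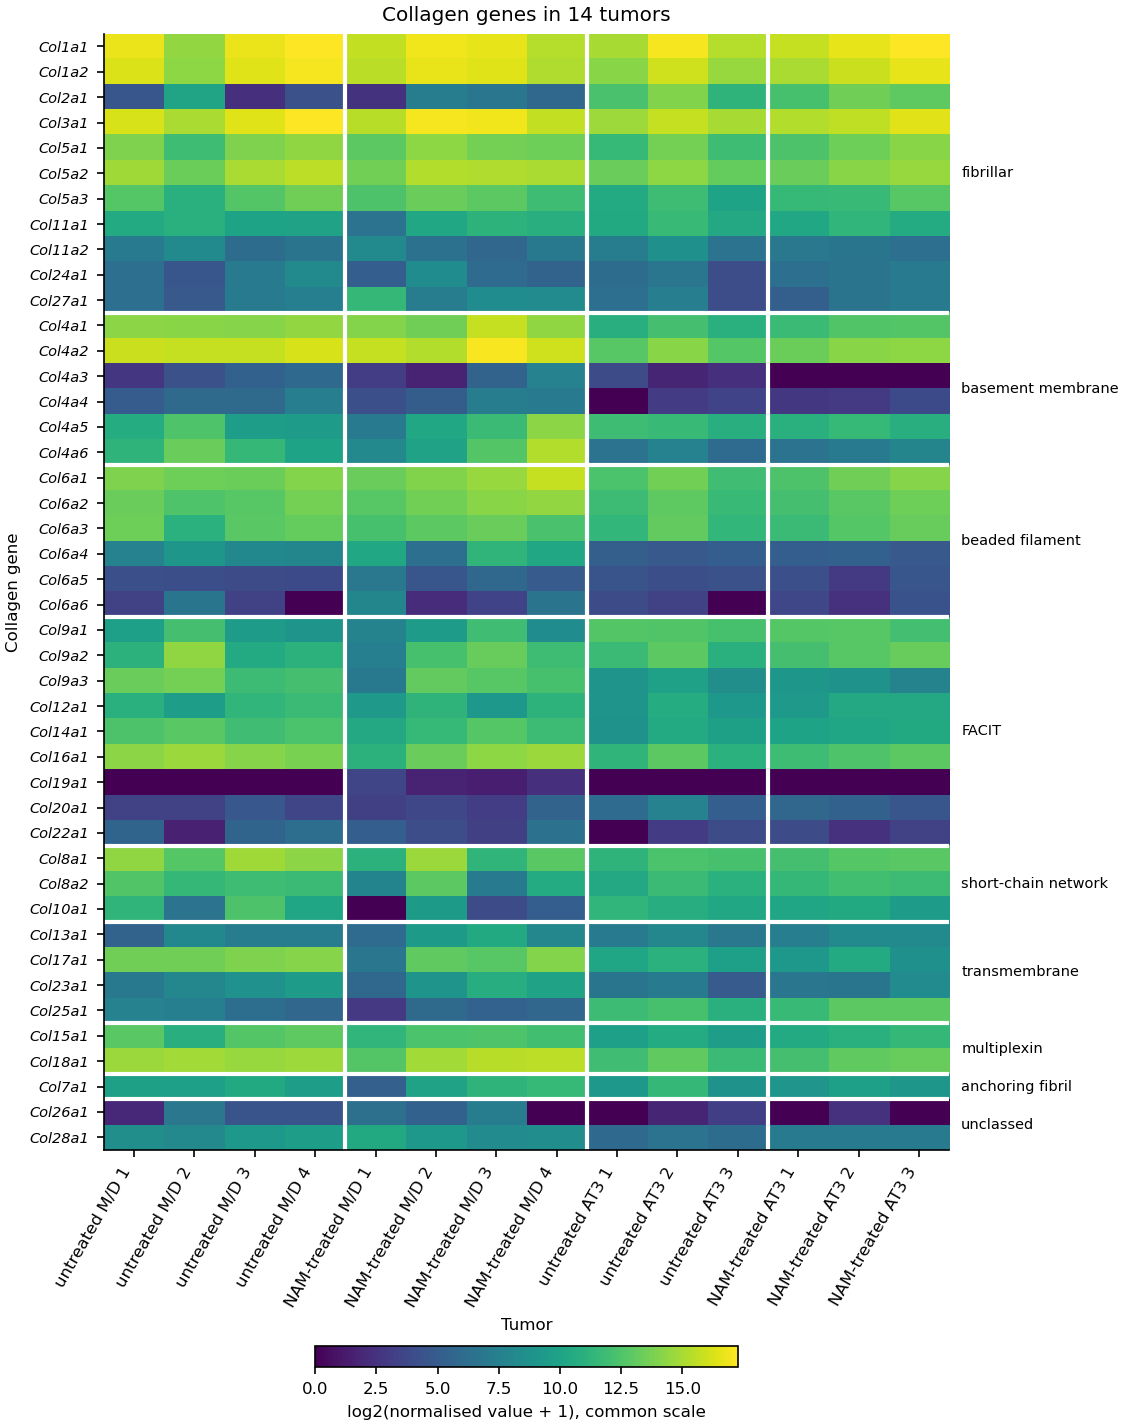
Rows are the 44 collagen genes by class, columns the 14 tumors by group, and color gives log2(normalised value + 1) on the common scale. Col2a1 and Col25a1 are brighter in every AT3 tumor than in any M/D tumor, Col4a1, Col4a2 and Col4a6 are brighter in every M/D tumor, and NAM-treated M/D tumor 1 is dark for many FACIT, short-chain network and transmembrane members.

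Untreated M/D and untreated AT3 tumors were compared first, on the common scale, with calls at an adjusted p of at most 0.05 in limma and a fold change of at least 1.5. Of 43 members tested, 15 were higher and 4 lower in M/D tumors. Over all 21721 genes tested the shares were 27.2% higher and 23.2% lower, so that the 15 members stand at about the background share for higher calls and the 4 members below that for lower calls. Over all genes these were 5917 higher and 5046 lower, a split that upper quartile scaling turned to 4216 and 7733 and the values as deposited to 7703 and 3276, with 13 and 21 members higher. By class, 4 of 6 basement membrane, 2 of 2 multiplexin, 3 of 8 FACIT, 2 of 6 beaded filament, 2 of 4 transmembrane, 1 of 3 short-chain network and 1 of 2 unclassed members were higher in M/D tumors, whereas 0 of 11 fibrillar members were. The median log2 difference was 1.08 over the members and 0.04 over all genes. Genes with long transcripts were higher in M/D tumors in general, as medians ran from -1.34 in the shortest to 1.26 in the longest of 20 length bins, and members are long (median 5989 bases, against 3056 for genes tested). After removal of this trend with length and GC content the median of the members was 0.31, with 13 called higher and 7 lower, beside 27.1% and 21.1% of genes in that setting. The members Col4a3, Col4a4, Col6a6, Col22a1 and Col26a1 passed the filter only through M/D tumors, their mean being below 10 in untreated AT3 tumors. Of the other 38 members, 14 were higher and 4 lower, and of the other 4 basement membrane members 3 were higher.

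The chains of the common type IV network, Col4a1 and Col4a2, were 7.75-fold and 6.42-fold higher in untreated M/D tumors. Col4a1 was at 20131, 18455, 18038 and 23092 in untreated M/D tumors 1 to 4 and at 1842, 4680 and 1945 in untreated AT3 tumors 1 to 3 (log2 difference 2.95, SE 0.32, adjusted p = 0.000279). Col4a2, which starts 21 bases away on the other strand, was at 59516, 55277, 56244 and 76381 against 6986, 18724 and 6669 (log2 difference 2.68, SE 0.37, adjusted p = 0.000714). Every M/D tumor was above every AT3 tumor for both chains, and untreated AT3 tumor 2 came closest. With the length trend removed both remained called, at log2 differences of 1.97 and 1.74.

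Col4a6 was 27.1-fold higher in untreated M/D tumors, whereas its neighbor Col4a5 was not called. Both encode minor type IV chains that combine with each other in the basement membranes of stratified epithelia and smooth muscle. Col4a6 was at 2387, 10184, 2931 and 1014 in untreated M/D tumors and at 95.7, 197 and 63.9 in untreated AT3 tumors (log2 difference 4.76, SE 0.71, adjusted p = 0.00100). Col4a5 was at 1654, 5910, 833 and 709 against 3748, 3135 and 1889, and these groups overlapped (log2 difference -0.86, SE 0.67, adjusted p = 0.304). Without untreated M/D tumor 2, which had the highest Col4a5 of the untreated tumors, Col4a5 was called lower in M/D tumors, at a log2 difference of -1.50. Of the remaining pair, both of which passed the filter only through M/D tumors, Col4a4 was called higher there, at 30.8, 62.5, 60.7 and 162 against 0, 7.29 and 10.1 (log2 difference 3.89, SE 0.94, adjusted p = 0.00868), and Col4a3 was at 59.4 or less in all of these tumors and was not called (adjusted p = 0.106).

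Col2a1, the chain of type II collagen, was the only fibrillar member called, and it was 143-fold lower in M/D tumors. It was at 5097, 15942 and 2366 in untreated AT3 tumors 1 to 3 but at 23.1, 1089, 4.14 and 18.8 in untreated M/D tumors 1 to 4 (log2 difference -7.16, SE 1.58, adjusted p = 0.00609). Untreated M/D tumor 2 stood far above the other M/D tumors, and without it the log2 difference was -8.74. No M/D tumor reached the lowest AT3 tumor. Col1a1 (log2 difference 0.51, SE 0.72, adjusted p = 0.571), Col1a2 (1.11, SE 0.66, adjusted p = 0.184) and Col3a1 (1.07, SE 0.48, adjusted p = 0.0891) were not called. When untreated M/D tumor 2 was left out, 5 fibrillar members were called higher in M/D tumors (29.3% of all genes were), and when untreated AT3 tumor 2 was left out, 1 was (26.8% of all genes). With the length trend removed, 0 fibrillar members were called higher and 3 lower, beside 27.1% and 21.1% of all genes. The median log2 difference of the class went from 0.85 to -0.09.

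The 3 chains that form the type IX collagen heterotrimer on the surface of type II fibrils went different ways. Col9a1 was lower in M/D tumors, at 846, 4624, 723 and 483 against 6500, 6151 and 4764 in untreated AT3 tumors (log2 difference -2.41, SE 0.67, adjusted p = 0.0159), a call that was lost without untreated AT3 tumor 1 (-2.32) or tumor 2 (-2.36) and was not made by edgeR or DESeq2. Col9a3 was higher in M/D tumors, at 10375, 12801, 3702 and 4523 against 488, 934 and 376 (log2 difference 3.63, SE 0.49, adjusted p = 0.000681). Col9a2 overlapped between the models, from 1472 to 21883 in untreated M/D and from 1968 to 7586 in untreated AT3 tumors (adjusted p = 0.940). So the same trimer had a chain called in each direction and a chain that was not called. Among cartilage markers, Acan, Comp and Hapln1 were lower in M/D tumors and 0 of 6 tested were higher, beside 23.2% lower and 27.2% higher of all genes. The summed level of the list of 7 was 335 to 3412 in untreated M/D and 3075 to 5974.5 in untreated AT3 tumors, with the highest M/D value in tumor 2. The part of such cells in Col2a1 and Col9a1 was not tested, and Matn1, a defining cartilage marker, was at 0 in untreated AT3 tumors 1 and 3 and at 7.29 in tumor 2.

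**Figure D3:**
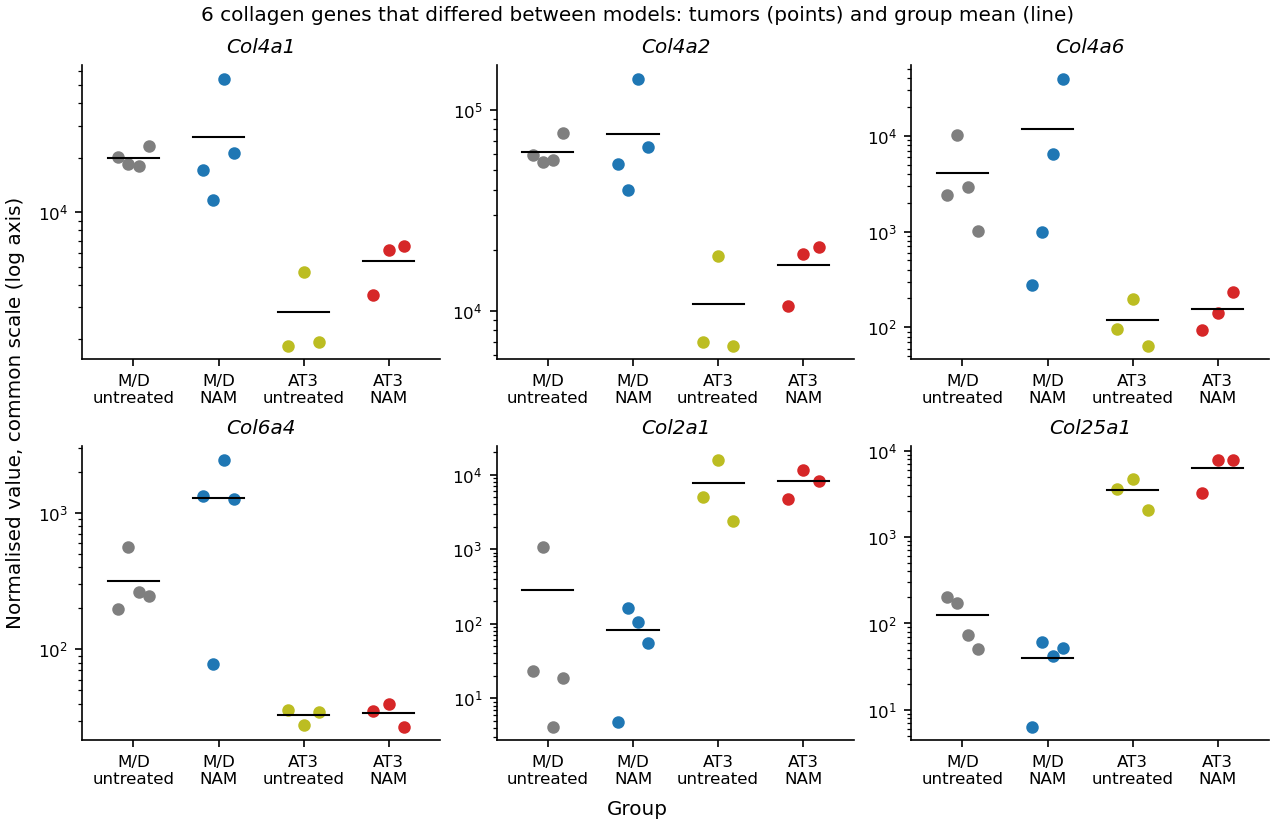
Points are tumors and lines group means of the normalised value on the common scale (log axes), for 6 collagen genes called in both comparisons between the models or named beside their partner chain. Col4a1, Col4a2, Col4a6 and Col6a4 are higher in all M/D tumors, and Col2a1 and Col25a1 in all AT3 tumors.

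Outside these classes, Col25a1, a transmembrane collagen best known from neurons and developing muscle, was 30.2-fold lower in untreated M/D tumors. It was at 204, 171, 74.5 and 51.1 against 3632, 4744 and 2036 in untreated AT3 tumors (log2 difference -4.91, SE 0.52, adjusted p = 0.000248). Col17a1 was 11.1-fold higher in M/D tumors, at 11787, 11783, 15644 and 18159 against 1160, 2084 and 856 (log2 difference 3.47, SE 0.31, adjusted p = 0.000147). Neither gene overlapped between the groups. Basal and keratinocyte markers moved with Col17a1, as 5 of 6 were higher in M/D tumors, beside 27.2% of all genes. Their summed level was 92870 to 1036670 in untreated M/D and 30609 to 50396 in untreated AT3 tumors. Krt5, a keratin of basal cells, was higher by 4.17 on the log2 scale (adjusted p = 0.000275). The part of these cells in the level of Col17a1 was not tested.

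Of the 2 multiplexins of vascular and epithelial basement membrane zones, Col18a1 was at 26183, 29669, 24640 and 26897 in untreated M/D tumors and at 4017, 8367 and 3425 in untreated AT3 tumors (log2 difference 2.46, SE 0.30, adjusted p = 0.000452). Col15a1 was at 7494, 1850, 6527 and 8009 against 867, 1592 and 783 (log2 difference 2.34, SE 0.51, adjusted p = 0.00591). For both, every M/D tumor was above every AT3 tumor. Col6a4, a chain related to Col6a3, was at 198, 566, 264 and 244 against 36.1, 27.9 and 34.5 (log2 difference 3.12, SE 0.42, adjusted p = 0.000684), and Col6a1 was 2.07-fold higher with overlap between the groups (adjusted p = 0.0415), but its call was lost once the length trend was removed, in edgeR and DESeq2, and without any of untreated M/D tumors 1, 3 and 4 and AT3 tumors 1 and 3 (log2 differences from 0.72 to 1.16).

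Among FACIT members, Col14a1, which binds to the surface of type I fibrils, was at 5688, 7380, 4033 and 5223 in untreated M/D and at 442.5, 1530 and 879 in untreated AT3 tumors (log2 difference 2.69, SE 0.39, adjusted p = 0.000959). Col16a1, the leading FACIT member of M/D tumors, was at 19597, 25588, 17666 and 13872 against 2567, 7637 and 2084 (log2 difference 2.44, SE 0.43, adjusted p = 0.00219). Neither overlapped between the groups. Col8a1 was at 22034, 6629, 27966 and 19404 against 2427, 5322 and 4949 (4.20-fold), and Col28a1 at 363, 279.9, 577 and 825 against 59.6, 92.3 and 69.0 (6.40-fold), also without overlap. Col23a1, which overlapped between the groups, was 4.20-fold higher in M/D tumors, a call lost with the length trend removed and without untreated M/D tumor 3 or 4 or AT3 tumor 1 or 3 (log2 differences from 1.41 to 2.30). Col20a1 was 5.80-fold lower, at 24.8 or less in every untreated M/D and 35.5 or more in every untreated AT3 tumor. Endothelial markers were higher in M/D tumors for 6 of 8 (summed level 8811 to 21017 against 6077 to 7603) and adipocyte markers for 5 of 5 (19705 to 60356 against 6550 to 11205), with no marker at 0 in a whole group. Over all genes 27.2% were higher. With the length trend removed 5 of 8 endothelial and 4 of 5 adipocyte markers were higher, beside 27.1% of all genes. Fat cells and vessels both make type IV collagen, and their part in these differences was not tested.

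The same comparison among NAM-treated tumors called fewer members, namely 3 higher and 2 lower in M/D tumors of 43 tested, beside 5.00% higher and 2.83% lower of 21442 genes. Col4a2 was at 53866, 39926, 143240 and 65584 in NAM-treated M/D tumors and at 10495, 19153 and 20847 in NAM-treated AT3 tumors (log2 difference 2.06, SE 0.46, adjusted p = 0.0358). Col4a1 was at 17175, 11709, 54513 and 21151 against 3494, 6216 and 6504 (log2 difference 2.07, SE 0.51, adjusted p = 0.0485). As without NAM, neither overlapped between the models. Col6a4 was at 1322, 78.5, 2462 and 1263 against 35.5, 39.7 and 27.0 (log2 difference 4.45, SE 1.08, adjusted p = 0.0458). Col2a1 was at 4.77, 160.5, 107 and 54.5 against 4754, 11549 and 8170 (log2 difference -7.30, SE 1.06, adjusted p = 0.00949), and Col25a1 at 6.36, 61.2, 41.6 and 51.7 against 3211, 7874 and 7884 (log2 difference -7.52, SE 0.77, adjusted p = 0.00296). Without NAM-treated M/D tumor 1 the count was 14 higher and 2 lower, beside 11.3% and 5.69% of all genes. DESeq2 on all 7 tumors gave 13 higher and 2 lower, beside 13.8% and 6.32% of all genes. Leaving out any other tumor left 1 to 7 members called, and Col4a1, Col4a2 and Col6a4 each lost their call without NAM-treated M/D tumor 3 or 4 or any AT3 tumor, with log2 differences from 1.64 to 2.24 for the type IV chains and from 3.88 to 4.57 for Col6a4. Col2a1 lost its call without NAM-treated AT3 tumor 2 (-7.00) or 3 (-7.25), while Col25a1 remained called each time.

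Over all 14 tumors, 8 members of 43 did not overlap between the 8 M/D and the 6 AT3 tumors. The 6 that were higher in every M/D tumor were Col4a1, Col4a2, Col4a4, Col4a6, Col6a4 and Col28a1, and the 2 that were lower were Col2a1 and Col25a1. Among 22851 genes, 8.40% were higher and 7.89% lower in every M/D tumor. Type IV genes make up 4 of the 6 higher ones, among them Col4a4, which passed the filter only through M/D tumors.

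Partner chains of a heterotrimer were next compared as ratios of reads within each tumor, which no scaling between libraries can change. For type I collagen the ratio of Col1a1 to Col1a2 was 1.32, 1.10, 1.22 and 1.18 in untreated M/D tumors and 1.17, 1.16, 1.15 and 1.07 in NAM-treated M/D tumors. It was 1.76, 2.09 and 1.63 in untreated AT3 tumors and 1.57, 1.62 and 1.59 in NAM-treated AT3 tumors. So every AT3 tumor had relatively more Col1a1 reads than every M/D tumor, although neither chain was called between the models. The log2 ratio was lower by 0.54 in M/D tumors (two-sided exact permutation test within treatment, 1225 relabellings, p = 0.000816, the smallest it can give, and 0.00408 after adjustment over the 5 ratios tested).

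The other 4 ratios did not pass that test. Col4a2 over Col4a1 was 2.63 to 3.41 in M/D and 3.00 to 4.00 in AT3 tumors (exact permutation p = 0.0604, adjusted 0.151), and its log2 difference of -0.15 was small beside that of either chain. Col6a1 over Col6a2 was 1.31 to 2.42 in M/D and 1.18 to 1.58 in AT3 tumors (exact permutation p = 0.343, adjusted 0.343). The ratios to Col6a3 spread more widely in M/D tumors, with 1.39 to 10.8 for Col6a1 and 0.942 to 4.47 for Col6a2, against 1.42 to 1.92 and 0.941 to 1.39 in AT3 tumors (exact permutation p = 0.143 and 0.116, both 0.179 after adjustment). With NAM, none of the 5 ratios moved past the test in either model. In AT3 tumors the smallest p that 3 against 3 tumors can give is 0.1, which the ratios of type I and type IV chains reached.

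The ratio of Col4a6 to Col4a5 and those of the type IX chains were added after their values had been seen and are given without a test. Col4a6 over Col4a5 was 0.817 to 3.52 in the 8 M/D tumors and 0.0255 to 0.132 in the 6 AT3 tumors. Col9a1 over Col9a3 was 0.0712 to 1.66 in M/D and 6.59 to 20.8 in AT3 tumors. Col9a1 over Col9a2 was 0.0913 to 1.18 in M/D and 0.454 to 2.42 in AT3 tumors. The first 2 of these ratios did not overlap between the models, whereas Col9a1 over Col9a2 did, as did Col4a2 over Col4a1.

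**Figure D4:**
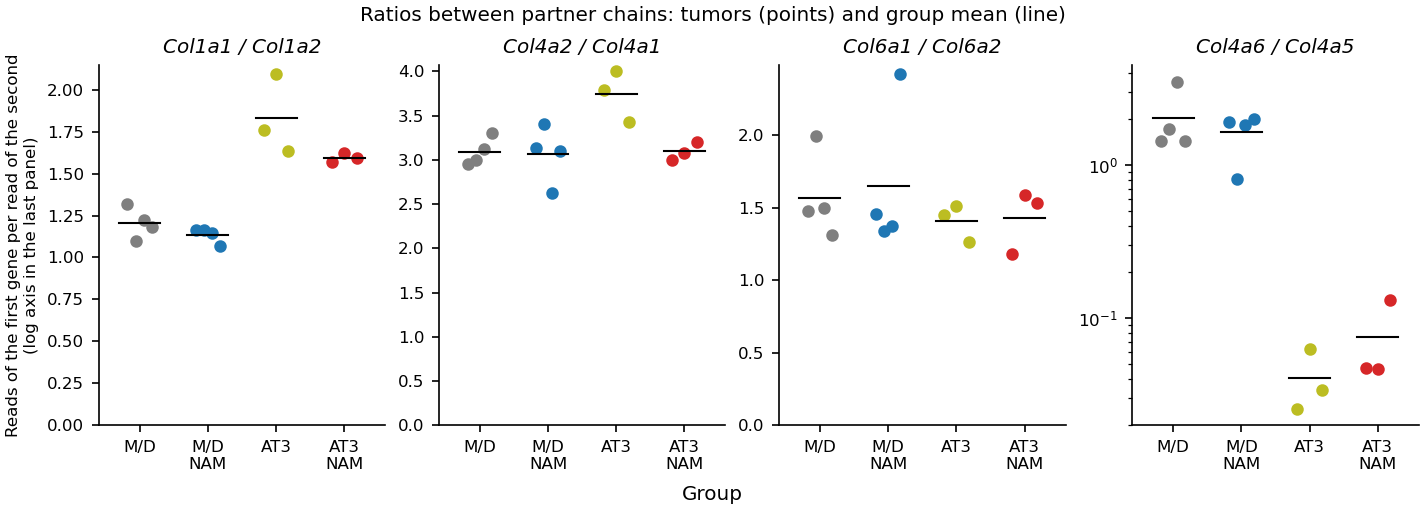
Each point is the ratio of reads of 2 partner chains in a tumor, and lines are group means (linear axes from 0, log axis for Col4a6 over Col4a5). Col1a1 over Col1a2 lies between 1.07 and 1.32 in M/D tumors and between 1.57 and 2.09 in AT3 tumors, while Col4a2 over Col4a1 and Col6a1 over Col6a2 overlap.

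In M/D tumors NAM left most collagen genes without a call. The comparison used values as deposited. Calls needed an unadjusted p of at most 0.05 in limma and a fold change of at least 1.5, after the study's thresholds for p and fold change. Over all genes only 1 passed an adjusted p of 0.05. Of 43 members tested, 2 were higher and 1 lower with NAM, beside 3.03% higher and 3.19% lower of 21700 genes, and each had an adjusted p of 0.734. The median log2 fold change was 0.0007 over the members and 0.01 over all genes.

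Col27a1, a fibrillar chain, was at 86.2, 28.2, 139.7 and 189.9 in untreated and at 3060, 162, 372 and 359 in NAM-treated M/D tumors (log2 fold change 2.48, SE 0.94, adjusted p = 0.734 in limma). The groups overlapped, and without NAM-treated tumor 1, by far the highest, the log2 fold change was 1.62. The call was lost without untreated tumor 1 (2.46) or 2 (1.94). Col6a5 was at 18.7, 17.4, 16.5 and 14.5 in untreated and at 129, 24.4, 58.9 and 33.7 in NAM-treated tumors (log2 fold change 1.53, SE 0.57, adjusted p = 0.734 in limma). It was the only member whose values did not overlap, and the share of all genes without overlap is not given here. Without NAM-treated tumor 1 its log2 fold change was 1.08, with the call lost. The call was also lost without untreated tumor 3 (1.53) or 4 (1.47) or NAM-treated tumor 3 (1.46). Col10a1, which encodes the collagen of hypertrophic cartilage, was at 2700, 102, 6182 and 1222 in untreated and at 0, 723, 16.6 and 38.5 in NAM-treated tumors (log2 fold change -5.50, SE 1.99, adjusted p = 0.734 in limma). The groups overlapped here too, with a log2 fold change of -3.92 when the tumor at 0 was left out, and the call was lost without untreated tumor 1 (-5.11) or 3 (-4.71) or NAM-treated tumor 3 (-5.30).

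By class, all 6 beaded filament members had a log2 fold change above 0 in M/D tumors (median 1.06) and all 3 short-chain network members one below 0 (median -2.33), but only Col6a5 and Col10a1 passed the test in these classes. The direction of Col6a3 (0.06) turned in edgeR (-0.15), in DESeq2 (-0.13) and without untreated tumor 2 (-0.49). Col6a1 was at 16601, 12069, 11669 and 18246 without and at 10767, 17580, 27521 and 61885 with NAM (log2 fold change 0.73, SE 0.49, adjusted p = 0.777 in limma), and Col6a2 went from 11248, 6062, 7804 and 13918 to 7404, 13112, 20058 and 25577 (0.69, SE 0.42, adjusted p = 0.760). Without NAM-treated tumor 1 both were called higher, at log2 fold changes of 1.11 and 1.02, as were Col13a1, Col18a1, Col23a1 and Col27a1, so that 6 members were higher and 1 lower, beside 2.85% and 2.33% of all genes. In that setting the median over members was 0.28. Col1a1, Col1a2, Col3a1, Col4a1 and Col4a2 had log2 fold changes from -0.17 (Col1a1, SE 0.63) to 0.15 (Col4a1, SE 0.43), well inside their errors. With NAM in M/D tumors muscle and keratinocyte markers had median log2 fold changes of 3.64 and -2.57, although 1 of 5 muscle markers (Myh4) and 0 of 6 keratinocyte markers were called. Summed muscle marker levels were 123 to 23516 without and 983 to 213856 with NAM, the highest being in NAM-treated tumor 4, which also had the highest Col6a1 and the highest summed level of fibroblast and pericyte markers (466618). Its deposited Col1a1, however, was the lowest of the NAM-treated M/D tumors, at 45671 (others 56222 to 128683). Untreated tumor 2 had the highest such sum without NAM (246413, others 57814 to 99407) and the lowest Col1a1 (23836, others 119190 to 166306). Adipocyte markers were above 0 for 5 of 5 (median 0.82, Adipoq called) and epithelial markers for 0 of 9 (median -1.19, 0 called). Without NAM-treated tumor 1 the median was -0.74 for keratinocyte and -0.15 for epithelial markers, 4.53 for muscle and 0.68 for adipocyte markers. The summed epithelial level of that tumor was 7176, against 120871 to 211114 in the other NAM-treated M/D tumors. Whether these cells take part in the values of the beaded filament members was not tested.

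In AT3 tumors most collagen genes were higher with NAM by point estimate, but few passed the test. Of 39 members tested, 4 were higher and 0 lower, with 5 members below the filter (Col4a3, Col4a4, Col19a1, Col22a1 and Col26a1). In this comparison 12.2% of 19281 genes were higher and 10.9% lower, so that the members called higher are at about the background share. The median log2 fold change was 0.65 over the members and -0.05 over all genes, and 30 of 39 members were above 0. No member passed an adjusted p of 0.05.

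Col28a1, a collagen of peripheral nerve, was at 47.8, 77.2 and 55.4 in untreated and at 117, 123 and 118 in NAM-treated AT3 tumors (log2 fold change 1.01, SE 0.33, adjusted p = 0.167 in limma). It was the only member without overlap, and the share of all genes without overlap is not given here. Col15a1 was at 696, 1331 and 628 without and at 1232, 1704 and 2531 with NAM (1.06, SE 0.36, adjusted p = 0.169). Col4a1 was at 1478, 3912 and 1561 without and at 2870, 5309 and 5577 with NAM (1.08, SE 0.41, adjusted p = 0.176). Col5a3, which regulates the growth of type I fibrils, was at 1207, 3199 and 830.3 without and at 2486, 2872 and 5901 with NAM (1.24, SE 0.50, adjusted p = 0.186). In Col15a1, Col4a1 and Col5a3, untreated AT3 tumor 2 was above the lowest NAM-treated tumor. Each of the 4 calls was lost without at least 1 tumor: Col28a1 and Col4a1 without NAM-treated tumor 2 (0.98 and 0.94), and Col15a1, Col4a1 and Col5a3 without untreated tumor 1 or 3 or NAM-treated tumor 3, with log2 fold changes from 0.79 to 1.09.

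The more abundant chains were not called. Col1a1 was at 26656, 113730 and 32713 without and at 44176, 85443 and 135060 with NAM (log2 fold change 0.79, SE 0.57, adjusted p = 0.396 in limma), Col1a2 at 15153, 54302 and 20042 against 28182, 52749 and 84912 (0.98, SE 0.52, adjusted p = 0.265), and Col4a2 at 5605, 15652 and 5353 against 8620, 16356 and 17876 (0.81, SE 0.44, adjusted p = 0.278). Again untreated tumor 2 was high and NAM-treated tumor 1 low. The type VI chains Col6a1, Col6a2 and Col6a3 had log2 fold changes of 0.74, 0.72 and 0.65 and were not called either. With upper quartile scaling the split over all genes turned from 2358 higher and 2100 lower to 1459 higher and 3492 lower, with 2 members higher and 1 lower. Without untreated tumor 2, 24 members were called higher and 0 lower, beside 18.2% and 17.5% of all genes, and without NAM-treated tumor 1 these were 16 and 0, beside 17.9% and 15.3%. Leaving out any other AT3 tumor left 1 or 2 members higher and 0 to 3 lower.

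The change with NAM in AT3 tumors followed transcript length across all genes. The median log2 fold change ran from -0.87 in the shortest to 0.71 in the longest of 20 length bins (Spearman's rho 0.589 across 16429 genes, which are not independent), and the bin with a median length of 6030.5 bases was at 0.64. In single tumors the rho of the deviation from the AT3 mean with length was -0.53, -0.0025 and -0.51 for untreated tumors 1 to 3 and -0.20, 0.56 and 0.59 for NAM-treated tumors 1 to 3. In M/D tumors the rho of the NAM effect with length was -0.04. Removal of the trend with length and GC content took the median of the members in AT3 tumors from 0.65 to 0.006, with 20 of 39 above 0.

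With the trend removed, 2 members were called higher (Col9a2 and Col28a1) and 7 lower in NAM-treated AT3 tumors, beside 8.77% and 7.30% of all genes. The 7 were Col11a2, Col20a1, Col7a1, Col17a1, Col4a5, Col10a1 and Col11a1, with log2 fold changes from -1.61 to -0.75. Hence, Col28a1 alone was called both with and without the trend, at 1.01 and 0.66. After removal Col4a1 was at 0.30 (adjusted p = 0.354), Col5a3 at 0.45 (adjusted p = 0.358) and Col15a1 at 0.46 (adjusted p = 0.209), of which Col15a1 passed the unadjusted threshold but not that on the fold change. Endothelial markers were higher with NAM for 6 of 8 in AT3 tumors, beside 12.2% of all genes, and for 4 of 8 with the trend removed. Their summed level was 6077 to 7603 without and 8216 to 11603 with NAM. Leukocyte markers were higher for 4 of 6, with sums of 3394 to 5090 without and 6924 to 9458 with NAM. The part of these cells in Col4a1 and Col15a1, both found around vessels, was not tested.

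**Figure D5:**
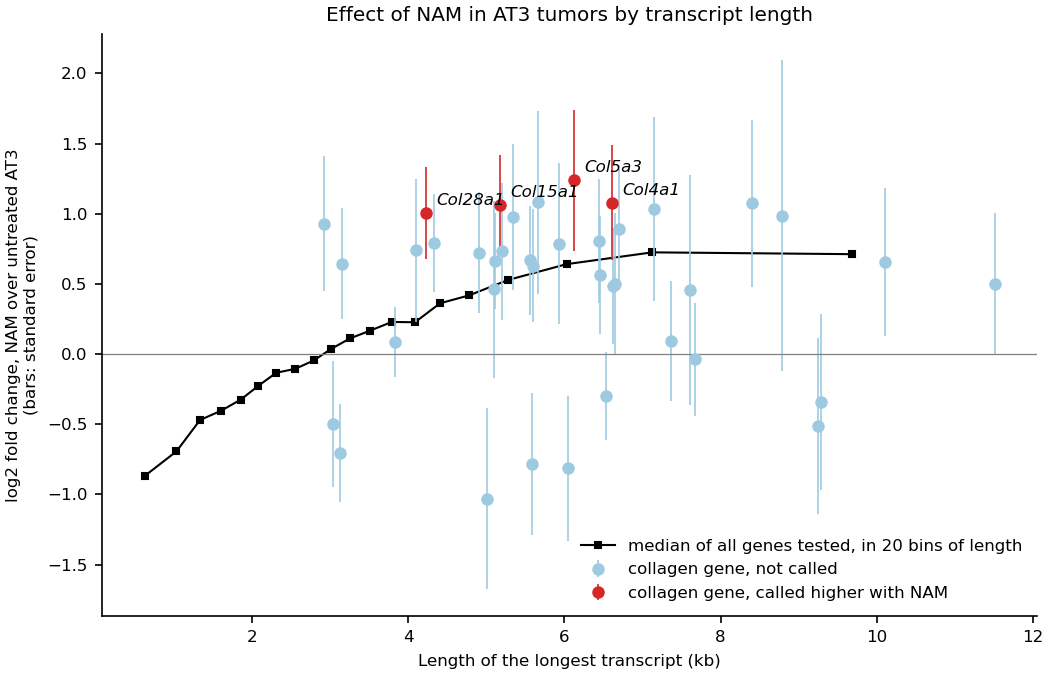
Log2 fold change of NAM-treated over untreated AT3 tumors (points with standard error bars) against the length of the longest transcript in kb, for 39 collagen genes, with the medians of all genes in 20 length bins (black line). The 4 members called (red) lie above the line, which is itself at 0.64 in the bin with a median length of 6030.5 bases.

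The difference between the effects of NAM in the 2 models was called for 0 of 43 members at an adjusted p of 0.05 in limma, and for 0 by edgeR and 0 by DESeq2. At an unadjusted p of 0.05, 2 members passed, against 15.1% of 22851 genes. Col25a1 had a log2 fold change of -1.77 with NAM in M/D tumors (SE 0.79, adjusted p = 0.734) and had a log2 fold change of 0.89 in AT3 tumors (SE 0.43, adjusted p = 0.234), with a difference of -2.61 (SE 1.00, adjusted p = 0.270 in limma). In M/D tumors it went from 220, 181, 81.1 and 54.7 to 6.79, 64.5, 45.1 and 57.8, where the groups overlapped. For Col6a5 the difference was 1.92 (SE 0.84, adjusted p = 0.313). Over the members the median difference was -0.67, and 0.02 with the length trend removed.

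Genes that act on collagens were read from 6 further lists. Of 18 genes for folding and modification of chains, 4 were higher and 8 lower in untreated M/D than in untreated AT3 tumors. Over all genes tested in that comparison, 27.2% were higher and 23.2% lower. The prolyl hydroxylase P4ha2 had a log2 difference of -2.25 (adjusted p = 0.000275) and the lysyl hydroxylase Plod2 one of -1.79 (adjusted p = 0.000312), whereas Serpinh1, the collagen chaperone HSP47, was higher by 0.74 (adjusted p = 0.0177). Genes for trimming of procollagen were higher in M/D tumors for 5 of 7 tested, with Adamts2 at 2.63 (adjusted p = 0.000249), and crosslinking genes for 5 of 6, with Loxl2 at 2.53 (adjusted p = 0.00259). Collagen-binding proteoglycans were higher for 4 of 7 tested and collagen receptors for 5 of 9, with Prelp at 3.13 (adjusted p = 0.000176) and Ddr2, a receptor for fibrillar collagen, at 2.74 (adjusted p = 0.000171). Of 14 other basement membrane proteins, 8 were higher and 1 lower in M/D tumors, including the laminin chain Lama3 at 4.19 (adjusted p = 0.000148) and nidogen Nid1 at 3.31 (adjusted p = 0.000356). With the length trend removed 5 of these were higher and 3 lower. In that setting 4 folding, 4 trimming, 4 crosslinking, 5 proteoglycan and 3 receptor genes were higher, beside 27.1% of all genes. Lower there were 8 folding genes and 1 receptor gene, beside 21.1% of all genes. Among NAM-treated tumors these lists had 0 to 1 genes higher in M/D tumors, and the folding list had 5 lower, beside 5.00% higher and 2.83% lower of all genes.

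With NAM in M/D tumors, the 6 lists gave 1 gene higher (Tll2, a procollagen protease of the tolloid family) and 1 lower (Loxl4, a lysyl oxidase) by limma at the unadjusted threshold. Over all genes 3.03% were higher and 3.19% lower there. In AT3 tumors 12.2% of all genes were higher and 10.9% lower with NAM. Crosslinking genes were higher for 3 of 6, with Lox at 571 to 922 without and 970 to 2882 with NAM on the common scale (log2 fold change 1.43, SE 0.41, adjusted p = 0.166 in limma), and this count was also 3 with the length trend removed. Proteoglycans were higher for 2 of 7 (Bgn and Fmod), receptors for 3 of 9 (Ddr1, Ddr2 and Itga2), folding genes for 2 of 18 (P4ha3 and Plod2), procollagen processing for 1 of 7 (Adamts2) and other basement membrane proteins for 1 of 14 (Nid1), while none of these genes was lower. With the trend removed the corresponding counts were 5, 1, 2, 0 and 1 higher, with 1 folding gene and 5 other basement membrane genes lower. Over all genes 8.77% were higher and 7.30% lower in that setting. Fibroblast and pericyte markers, the cells from which most fibrillar collagen comes, were called for 3 of 12 in AT3 tumors (Pdgfra, Pdgfrb and Cspg4), and their summed level was 24605 to 32552 without and 25128 to 29153 with NAM. Between untreated tumors 6 of these 12 were higher and 1 lower in M/D tumors, beside 27.2% higher and 23.2% lower of all genes. Other markers higher in untreated M/D tumors were 6 of 9 epithelial, 5 of 6 leukocyte and 3 of 5 Schwann cell markers, with 0 lower, while 0 of 5 muscle markers were called. The part of these cells in the values of the collagen genes was not tested.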

How the data were processed

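Values were taken from the table deposited by the authors, a normalized signal per gene and tumor. Per the labels and the study's methods, reads were mapped with STAR 2.4.0 on mm10, counted on constitutive regions of genes and divided by DESeq2 size factors within each model; whether counting used strand is not given in the sources used here. All values (100%) were whole multiples of 1 read (tolerance 0.01), so that reads were recovered, and on these edgeR called 992 genes higher and 645 lower with NAM in M/D and 2512 and 2147 in AT3 tumors. For comparisons between models, reads were divided by size factors over all 14 tumors (the common scale), as the deposited scales differ by 0.37 on the log2 scale. Log2(value + 1) was tested with limma 3.58.1 (R 4.3.3) wherever the mean of 1 group or more reached 10, with Benjamini-Hochberg adjustment over all genes, so fold changes of low genes are understated. Alternatives were edgeR 4.0.16, DESeq2 1.42.0, other scalings, filters and pseudocounts, tumors left out, and a spline on length and GC content of the longest GENCODE transcript (82.9% to 85.2% of genes, all members). Values in every tumor are given for called members (at most 10 by size of change), class leaders and partner chains; for other lists, counts and up to 4 genes. Members, classes and lists were chosen with earlier results of these data known. The fits were tested on simulated data. Each library is 1 tumor, and p-values measure the spread between these tumors. The result of 1 marker gene is not reported here.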

Additional observations from a re-analysis of the deposited data

Results flagged for a closer look

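In groups of 4 tumors, 86 sets of deposited values of collagen genes were searched for a tumor far from its group, of which chance flags about 1 in 20, and 6 were found. All 6 were in libraries that stood apart before, in part through values of these same genes. In untreated M/D tumor 2, Col9a2 was at 23192 (other untreated tumors 1602 to 2331), Col22a1 at 2.17 (others 48.8 to 79.7) and Col15a1 at 1961 (others 7105 to 8574). In NAM-treated M/D tumor 1, Col5a2 was at 13331 (others 37974 to 42121), Col9a3 at 133 (others 5376 to 9179) and Col25a1 at 6.79 (others 45.1 to 64.5).

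The effect of NAM differed between the models at an unadjusted p of 0.05 for a pair of members, neither of which passed after adjustment: Col6a5, with a difference of 1.92 on the log2 scale (M/D minus AT3, adjusted p = 0.313 in limma), and Col25a1, with a difference of -2.61 (adjusted p = 0.270).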

How the results depend on the processing

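With NAM in M/D tumors 3 collagen genes were called, 6 in DESeq2 and with all 14 tumors in 1 fit, 0 by adjusted p (1 of all genes passed), and 1 to 7 with a tumor left out. With NAM in AT3 tumors 4 were called, 9 with the length trend removed (2 higher and 7 lower), 0 with all 14 tumors in 1 fit, 0 by adjusted p, and 1 to 24 with a tumor left out. Here 8.77% and 7.30% of all genes were higher and lower with the trend removed, and 9.05% and 8.05% in the 1 fit. Leaving out a tumor gave 4.68% to 18.2% and 3.69% to 17.5%. The difference of the NAM effect kept 0 calls throughout. Between untreated models, 19 were called, and 16 to 30 with a tumor left out, 30 being without untreated M/D tumor 2. Beside this range, 20.9% to 29.3% of all genes were higher and 16.7% to 23.8% lower. Between NAM-treated models 5 were called, 3 with a pseudocount of 5, without the filter, with upper quartile scaling and in edgeR, 15 in DESeq2, and 1 to 16 with a tumor left out. With that pseudocount, without the filter, with upper quartile scaling and in edgeR, 4.10%, 2.61%, 3.96% and 3.07% of all genes were higher. The shares lower were 2.76%, 1.37%, 4.34% and 1.93% in the same order. DESeq2 gave 13.8% and 6.32%, and leaving out a tumor 0.819% to 11.3% and 0.288% to 5.69%. Same-numbered tumors did not deviate together (r of 0.11, -0.444, -0.216 and -0.186 in M/D, 0.126, 0.256 and -0.16 in AT3), so numbers do not pair tumors; with the replicate block 15 members were called with NAM in AT3, 13 higher and 2 lower (9 with the trend removed as well, 1 higher and 8 lower, an alternative chosen after seeing the data) and 0 between NAM-treated models. Also chosen after seeing the data, removal of the trend gave 8 with NAM in AT3 without untreated tumor 2 (4 higher and 4 lower, against 24 and 0 with the trend) and 20 between NAM-treated models without NAM-treated M/D tumor 1 (18 and 2). Of all genes, 11.1% and 11.3% were higher and lower in the former and 14.3% and 9.93% in the latter. Col4a2 over Col4a1 passed before adjustment without NAM-treated M/D tumor 2 (log2 difference -0.17) or untreated AT3 tumor 3 (-0.14). Over all genes, DESeq2 called 1287 higher and 805 lower with NAM in M/D tumors against 658 and 692, upper quartile scaling 915 and 561, and the block 479 and 522; between NAM-treated models DESeq2 called 2951 and 1356, edgeR 658 and 413, upper quartile scaling 849 and 931 and the block 3 and 4, against 1073 and 607. At an adjusted p of 0.05 with NAM in AT3 tumors, limma called 1 gene, edgeR 0, DESeq2 2047 and limma with the block 1296. For the difference of the NAM effect, DESeq2 called 824 genes and limma 0. The cause of these shifts was not tested. At the depth of these libraries, counting limits only genes listed with few reads, such as Col19a1.

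Uncalled chains changed sign as follows. With NAM in M/D tumors, with a tumor left out, Col1a1 ranged from -0.79 to 0.14, Col1a2 from -0.66 to 0.23, Col4a1 from -0.28 to 0.47, Col4a2 from -0.23 to 0.40 and Col6a3 from -0.49 to 0.33, while Col1a2 was 0.024 with upper quartile scaling and Col6a3 was -0.15 in edgeR and -0.13 in DESeq2. With the trend removed, Col6a3 was -0.25 with NAM in AT3 tumors (also with the block), and Col1a1 was -0.38 and Col6a3 -0.58 between untreated models. Between NAM-treated models, Col1a2 was -0.12 with upper quartile scaling, -0.054 with the trend removed and -0.31 to 0.45 with a tumor left out, and Col6a3 was -0.11, -0.24 and -0.32 to 0.45, and -0.11 without NAM-treated M/D tumor 1 and the trend. Over 53 single values, 863 of 1014 alternatives kept direction and side of the threshold.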
